A study of Mus musculus with 28 samples.

Results

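Dorsal skin that lacked Gab1 in its keratinocytes was compared between 15 days (P15) and 10 days (P10) after birth, to see which maturation changes the mutant skin made. The comparison used the 6 P15 mutant and the 6 P10 mutant arrays together with all 10 P10 control arrays, which were 22 of the 28 arrays of the series. The P10 controls were needed because the mutants of the 2 ages were hybridised on different BeadChip slides, whereas P10 controls lay on all 4 slides. The 6 P15 control arrays added to the estimate of spread and gave the change in control skin that is set beside the mutant change.

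All animals were mice of a mixed C57/BL6;129Ola strain, and each array held biotin-labelled RNA from whole dorsal skin. The P15 and P10 mutants carried K14-cre with the Gab1fl allele, and the P15 and P10 controls are labelled as control mice with no further genotype. Whether each array of a group stands for another animal is not stated in the labels, so the spread behind each p-value is that of these samples and may be technical. K14-cre acts in basal keratinocytes of the epidermis and hair follicle, so dermal, fat and muscle cells were not the cells targeted, and the sources used here do not give the deleted exons.

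Gab1 is a docking protein that couples receptor tyrosine kinases, among them the receptors for epidermal and fibroblast growth factors, to the Ras-ERK and PI3-kinase pathways. In normal mouse skin of this age the hair follicles are completing their initial growth phase. Over the same days the dermis slows its production of collagen, and the fat layer of the skin, which thickens during hair growth, is well developed.

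Levels are log2 signals after background correction and quantile normalisation. A relative level is a gene's log2 signal minus the mean of the P10 controls on the same slide, so that 0 is the level of those controls. Changes were tested with limma with terms for the 4 groups and the 4 slides, and a gene is said to have risen or fallen at a Benjamini-Hochberg adjusted p below 0.05 over the 9045 genes tested. Floored folds are those in which arrays with no detected signal were set to the lowest detected signal of that array, so they can understate the change.

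Between 8836 and 13610 of the 25697 probes were detected per array, with the fewest on P15 mutant 5, which also had the highest median raw signal of all arrays. Markers of keratinocytes (Krt5, Krt14, Krt10), hair shaft (Krt31, Krt35), fibroblasts (Col1a1, Lum) and fat (Adipoq) were detected on all 28 arrays, and 5 markers of skeletal muscle on 15 to 28. Fabp4, another fat marker, was detected on 2 arrays, and Bglap, a bone marker, on 28. Probes for Cd79a, Cd79b and Ms4a1 (B cells), for Csf3r, Cxcr2 and Mpo (granulocytes) and for the inner root sheath keratin Krt25 were detected on 0 arrays. On both pairs of slides the mutants lay in positions A to C and the controls below them, so genotype and position on the slide cannot be told apart, and the link between the slide pairs rests on P10 controls in different positions. Among the P10 controls themselves, 2136 genes (23.6% of those tested) differed between the slide pairs, and the slide term removes that difference from the mutant change only as far as these controls measured it.

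The targeted gene separated the genotypes at both ages, although it is not known here whether its probe lies in the deleted part. Relative levels of Gab1 were -1.35, -1.17 and -0.82 (lowest, median and highest) in P15 mutants and -1.63, -1.39 and -1.03 in P10 mutants. All 12 mutant values lay below those of the P15 controls, which were 0.07, 0.24 and 0.36. The values of the 2 mutant ages overlapped, and the change between them was 0.20 ± 0.17 on the log2 scale (SE, limma adjusted p = 0.461).

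Mutant skin changed in many genes over the 5 days. Of 9045 genes, 1145 changed (12.7%), of which 570 rose (6.3%) and 575 fell (6.36%). At least 2-fold changes were made by 114 genes that rose (1.26%) and by 258 that fell (2.85%), so the larger changes were more often falls. Relative levels of the 6 P15 mutants and the 6 P10 mutants did not overlap for 855 genes (9.45%), and 677 of these were also called (7.48%). In control skin, 1060 genes rose (11.7%) and 963 fell (10.6%). The difference between the mutant and the control change, which compares mutants with controls of their own age on the same slides, passed the threshold for 178 genes in the direction of a higher change in mutants (1.97%) and for 184 in the lower (2.03%). The mutant and the control change share the P10 controls through the slide terms, so no likeness between them is read from these counts.

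The split between rises and falls depended on the scaling. The median change of all genes was -0.13 with arrays scaled to a common median, against 0.04 after quantile normalisation, and 129 genes rose while 718 fell. The list medians below are best read against these medians. The P15 mutants can be paired with the P10 mutants over 4 combinations of 1 slide of each age. Of the 1145 genes called, which were selected on these same arrays, 1127 had the same sign in all 4. Of all 9045 genes tested, 3698 did. The combinations share arrays with each other and with the main fit, so this agreement is not a replication.

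**Figure D1:**
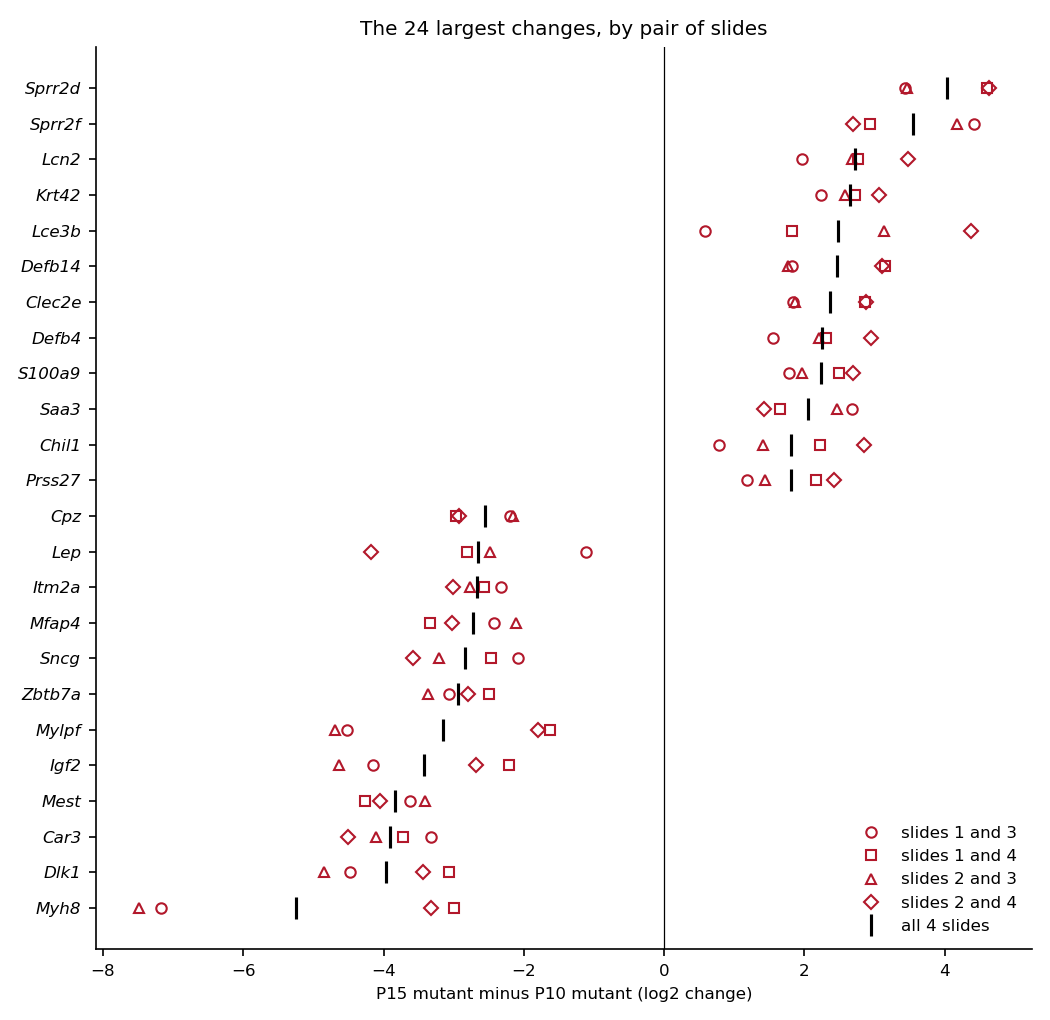
Log2 change, P15 mutant minus P10 mutant (horizontal axis), of the 12 named genes with the largest rises and the 12 with the largest falls (rows), fitted in each of the 4 combinations of 1 slide with P15 mutants and 1 slide with P10 mutants (symbols) and over all 4 slides (vertical ticks). The points of Sprr2d lie between 3.43 and 4.64 and those of Mylpf between -4.69 and -1.63, so the muscle gene varies more with the slides chosen.

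The largest group of falls was in the genes of the dermal matrix. Of 29 measured genes for collagens, small proteoglycans and elastic fibre proteins, 23 fell and 0 rose, with a median change of -1.37 on the log2 scale (-1.33 with undetected arrays at the floor), against 0.04 over all genes. The mean relative level over the list was -0.94, -0.64 and -0.40 (lowest, median and highest) in P15 mutants and 0.40, 0.63 and 0.76 in P10 mutants. The ages did not overlap. P15 controls lay at -0.82, -0.71 and -0.58, within the range of the P15 mutants, while the P10 mutants lay above all P10 controls, which were between -0.18 and 0.20. In whole skin, fewer cells of a type and less RNA per cell cannot be told apart, here and for each cell type that follows.

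Mfap4, a glycoprotein of elastic microfibrils, had relative levels of -2.73, -1.66 and -1.06 in P15 mutants and 0.51, 0.81 and 1.13 in P10 mutants. It was 6.62-fold lower in P15 mutants (log2 change -2.73 ± 0.28, SE, adjusted p = 3.52e-07), and the values did not overlap. Lum, which encodes the collagen-binding proteoglycan lumican, had relative levels of -2.05, -1.43 and -0.62 in P15 mutants and 0.59, 1.00 and 1.49 in P10 mutants. Lum was 5.4-fold lower, Col6a2, a chain of collagen VI, was 3.55-fold lower, and Fbln2, the basement membrane and elastic fibre protein fibulin 2, was 3.16-fold lower, all without overlap. Col1a1, a chain of the main fibrillar collagen that was chosen after its values were seen, was 4.98-fold lower (adjusted p = 4.37e-06).

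In control skin 18 of the 29 matrix genes fell, with a median of -0.79. The change differed between mutant and control skin for 10 of the 29, all more negative in mutants. Mfap4 was among them, with a difference of -1.57 ± 0.26 (SE, adjusted p = 0.0011), while for Fbln2 the difference was -0.27 (adjusted p = 0.395). The count of 10 rests on the scaling, since 1 of the 29 passed under median scaling, where the same 23 fell in mutants. The count of falls in mutants was 22 to 24 when each array was left out in turn, and 23 with a muscle score in the fit. The 3 P15 mutants of slide 4 had lower list levels (-0.94 to -0.79) than the 3 of slide 3 (-0.49 to -0.40).

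Adipocyte genes fell as a group as well. Of 16 measured, 11 fell and 0 rose, with a median change of -1.40 on the log2 scale (-1.27 at the floor). The mean relative level of the list was -1.05, -0.80 and -0.51 in P15 mutants and 0.24, 0.55 and 1.2 in P10 mutants, so that all 6 P15 mutants lay below all 6 P10 mutants. P15 controls were at -0.75, -0.50 and -0.17, which overlapped the P15 mutants. P10 controls were at -0.43, 0.03 and 0.37, so the median of the P10 mutants lay above the highest of them.

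Car3, the abundant carbonic anhydrase of fat and slow muscle, had relative levels of -3.80, -2.88 and -1.78 in P15 mutants and 0.20, 1.16 and 1.99 in P10 mutants. It was 15.1-fold lower in P15 mutants (-3.91 ± 0.45, SE, adjusted p = 1.8e-06) and fell in control skin by 1.98 on the log2 scale, with a difference of -1.94 between the changes (adjusted p = 0.00849). Adipoq, which encodes the fat cell hormone adiponectin, had relative levels of -1.98, -1.25 and -1.04 in P15 mutants and 0.48, 0.89 and 1.65 in P10 mutants, a 4.99-fold lower level without overlap. The lipid synthesis enzyme gene Agpat2 was 3.36-fold lower, the lipid droplet protein gene Plin4 was 3.14-fold lower and Pparg, the master regulator of fat cell formation, was 2.98-fold lower (floored, detected on 5 of 6 P15 mutants).

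Lep, the gene of the hormone leptin, was 6.28-fold lower in P15 mutants (adjusted p = 0.00363). Its relative levels were -4.79, -1.67 and -0.59 in P15 mutants and -0.30, 0.43 and 1.70 in P10 mutants, which did not overlap. It changed by -0.45 in control skin (adjusted p = 0.502). The fall of Lep missed the threshold when slides 1 and 3 alone were used, and its difference from the control change missed it without P10 mutant 4. Over the list, 7 of the 16 genes fell in controls and the change was more negative in mutants for 8.

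**Figure D2:**
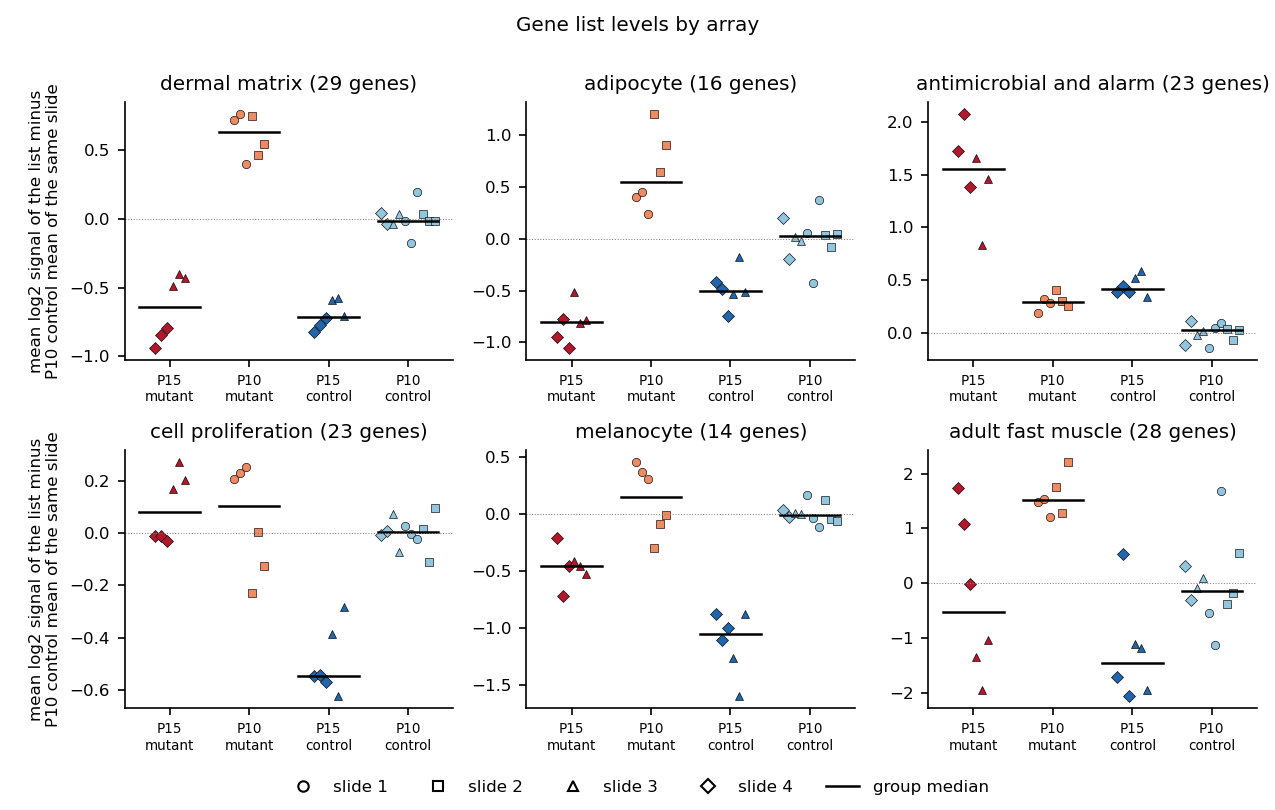
Mean relative log2 level of gene lists (vertical axes, 0 is the mean of the P10 controls on the same slide) on each array, with P15 mutants, P10 mutants, P15 controls and P10 controls from left to right, a symbol for each slide and a bar at the group median. The dermal matrix and adipocyte levels of P15 mutants lie below those of P10 mutants without overlap, and the proliferation levels of the 2 mutant ages overlap.

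Genes of late fetal and early postnatal growth, many of them imprinted, also fell. Of 16 measured, 9 fell and 0 rose (median change -1.05, and -0.40 with no filter on dim probes). In control skin 10 fell and 1 rose, and the change differed for 3, all lower in mutants. Averaged over the list, relative levels were -1.04, -0.97 and -0.67 in P15 mutants and 0.19, 0.37 and 0.60 in P10 mutants, without overlap, and P15 controls lay at -0.93, -0.77 and -0.71.

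Dlk1, a membrane protein of precursor cells that opposes fat cell formation, was detected on 1 of 6 P15 mutants and on all 6 P10 mutants. Its relative levels were -3.39, -2.68 and -0.65 in P15 mutants and 0.46, 1.71 and 1.93 in P10 mutants, a 7.91-fold lower level (floored, adjusted p = 2.63e-05). Mest, an imprinted gene expressed in mesoderm and growing fat, was 9.91-fold lower (floored, adjusted p = 3.28e-07), with relative levels of -3.64, -2.76 and -2.15 in P15 mutants and 0.54, 0.99 and 1.68 in P10 mutants. Both fell without overlap, and for Mest the change was more negative in mutants than in controls by 2.06 (adjusted p = 0.00145).

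Igf2, the fetal insulin-like growth factor, was 10.7-fold lower in P15 mutants, and its relative levels were -3.54, -2.77 and -0.10 in P15 mutants and 0.43, 1.06 and 1.61 in P10 mutants. The single P15 mutant near 0 was on slide 4, and Igf2 missed the threshold when only slides 1 and 4 were used. Nnat, a proteolipid gene imprinted in many tissues, was detected on 0 of 6 P15 mutants, on 6 of 6 P10 mutants and on all controls of both ages. It was at least 2.82-fold lower in P15 mutants, with relative levels of -2.14, -1.40 and -0.85 in P15 mutants and 0.56, 0.90 and 2.01 in P10 mutants. In control skin Nnat changed by -0.09 (adjusted p = 0.805), and the difference between the changes was -2.36 ± 0.28 (SE, adjusted p = 1.3e-05). Gpc3, a glypican that restrains growth, was 2.45-fold lower in P15 mutants and fell in controls too, with a difference of -0.30 (adjusted p = 0.302).

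Some other large falls belonged to none of these lists. Sncg, a synuclein expressed in fat and sensory neurons, was 7.07-fold lower (floored) and Itm2a, a membrane protein of developing muscle and cartilage, was 6.01-fold lower (floored). Cpz, a carboxypeptidase that binds Wnt proteins, was 4.94-fold lower (floored) and Zbtb7a, a transcriptional repressor, was 6.76-fold lower (floored). None of the 4 overlapped between the ages. Zbtb7a changed by -2.93 in mutants and -2.67 in controls on the log2 scale (difference -0.27, adjusted p = 0.735).

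Some muscle genes fell too. Of 28 genes of adult fast muscle, 5 fell (17.9%, against 6.36% of all genes called lower), with a median change of -1.83, and in control skin 9 fell. All 28 changes in mutants were below 0. At an unadjusted p below 0.05, 20 were lower in P15 mutants (71.4% of the list, against 28.1% of all genes in either direction). The list as a whole had mean relative levels of -1.96, -0.52 and 1.73 in P15 mutants and 1.2, 1.51 and 2.21 in P10 mutants, so the ages overlapped. The P10 controls, which share their age and label, ranged from -1.13 to 1.67. Within the P15 mutants, the 3 arrays of slide 3 had levels of -1.96 to -1.03 and the 3 of slide 4 had levels of -0.01 to 1.73. Dermal matrix levels went the other way between these slides, at -0.49 to -0.40 on slide 3 and -0.94 to -0.79 on slide 4. The count of 5 was 17 without P10 control 7, 2 without P10 control 4 and 3 without P15 mutant 5. Under median scaling 8 fell.

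Myh8, the perinatal myosin heavy chain, had relative levels of -6.64, -4.03 and -0.24 in P15 mutants and 1.05, 1.51 and 2.26 in P10 mutants. It was 29.3-fold lower (floored, adjusted p = 0.000494) and fell by 5.10 on the log2 scale in controls. Mylpf, a light chain of fast muscle, was 8.94-fold lower (adjusted p = 0.0131), and Myl4, the embryonic and atrial light chain, was 4.76-fold lower. The calls of Myh8 and Mylpf were lost with slides 1 and 4 alone and with slides 2 and 4 alone. With the muscle score as a covariate, 23 of 29 dermal matrix genes, 9 of 16 adipocyte genes and 8 of 16 growth genes fell, and 10 of 23 antimicrobial genes rose. All of these were among the genes called without the covariate, while over all genes 297 rose and 367 fell with it. The part of muscle in the other falls was not tested beyond this fit.

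Mast cell genes fell as well. Of 6 measured, 3 fell, namely Cpa3, Cma1 and Mcpt4, all proteases of mast cell granules, and 5 fell under median scaling. The mean relative level of the list was -0.65, -0.44 and 0.53 in P15 mutants and 0.68, 0.80 and 1.24 in P10 mutants, without overlap. Cpa3 had relative levels of -2.36, -1.05 and -0.57 in P15 mutants and 0.31, 0.68 and 1.13 in P10 mutants, a 3.91-fold lower level. Cma1 was 3.50-fold and Mcpt4 2.81-fold lower, and none of the 3 overlapped between the ages. They fell in controls as well, and the adjusted p of the difference was 0.593 for Cpa3, 0.844 for Cma1 and 0.305 for Mcpt4. Of 4 red cell genes 2 fell in mutants, and 2 fell and 1 rose in controls. Hba-a1, an alpha globin gene, was 3.44-fold lower in P15 mutants and fell by 1.61 on the log2 scale in controls. Macrophage, dendritic and MHC class II genes (15), endothelial genes (15) and ribosomal protein genes (20) held 0 members that rose or fell in mutants by limma's test. At an unadjusted p below 0.05 these lists held 1, 3 and 4 members, against 28.1% of all genes. Without P15 mutant 5, 1 ribosomal protein gene rose and 2 fell, and under median scaling 2 endothelial genes and 1 macrophage list gene fell.

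The strongest rises were in genes of defence and of stressed epidermis. Of 23 antimicrobial and alarm genes, 11 rose and 0 fell, with a median change of 0.85 on the log2 scale (0.99 at the floor, and 0.53 with no filter on dim probes). Taken over all its genes, the list had mean relative levels of 0.83, 1.56 and 2.07 in P15 mutants and 0.19, 0.29 and 0.41 in P10 mutants, without overlap. P15 controls lay at 0.34, 0.42 and 0.59, below all P15 mutants. In control skin 9 of the 23 rose, and for 7 the change was higher in mutants. The mutant count was 10 to 14 when each array was left out, with 14 reached without P15 mutant 5, and 8 under median scaling.

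Sprr2d and Sprr2f, small proline-rich proteins of the cornified envelope that are made in stressed epidermis, had the largest rises. Sprr2d had relative levels of 3.01, 4.34 and 6.42 in P15 mutants and 0.03, 0.44 and 1.00 in P10 mutants. It was detected on 6 of 6 P15 mutants, 2 of 6 P10 mutants, 1 of 6 P15 controls and 0 of 10 P10 controls. The rise was 11.8-fold (floored, log2 change 4.03 ± 0.50, SE, adjusted p = 3.8e-06), against a change of 0.34 in controls (adjusted p = 0.549), and the difference between the changes was 3.69 (adjusted p = 2.8e-05). Sprr2f had relative levels of 2.05, 3.24 and 4.05 in P15 mutants and -0.71, -0.32 and -0.10 in P10 mutants. It rose 7.22-fold (floored) in mutants and by 1.55 on the log2 scale in controls. Another member of the family, Sprr2a1, which was chosen after its values were seen, changed by 0.08 (adjusted p = 0.872). The genes of this family are near-identical copies and the probe sequences were not used here, so signal shared between the copies cannot be told apart.

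The promoters of the 2 genes with the largest rises are shown because both lie in the same gene cluster and rose together. Each window runs from 250 bases before to 50 bases after the start of the gene, on the plus strand of GRCm38.p6 as given by RefSeq, at chr3:92338890-92339189 for Sprr2d and chr3:92364937-92365236 for Sprr2f. Capitals mark a TGANTCA match, the motif bound by AP-1 factors such as Jun and Fos, and a TATAAA box.
Sprr2d: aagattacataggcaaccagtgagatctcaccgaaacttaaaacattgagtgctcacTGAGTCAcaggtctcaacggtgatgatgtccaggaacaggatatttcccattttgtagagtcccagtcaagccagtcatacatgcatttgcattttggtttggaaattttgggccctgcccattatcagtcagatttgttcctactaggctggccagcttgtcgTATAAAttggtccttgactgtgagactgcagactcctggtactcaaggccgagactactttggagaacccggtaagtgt
Sprr2f: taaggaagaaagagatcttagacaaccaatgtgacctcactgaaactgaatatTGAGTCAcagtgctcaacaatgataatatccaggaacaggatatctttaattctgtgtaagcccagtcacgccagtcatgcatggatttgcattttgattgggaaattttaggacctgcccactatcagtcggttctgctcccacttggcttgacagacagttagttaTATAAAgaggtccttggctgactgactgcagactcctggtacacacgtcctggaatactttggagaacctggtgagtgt

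From the TATAAA box to the end of the window, 65 of 79 bases were identical between the genes (82.3%), and over the whole window, with no gaps, 128 of 300 were (42.7%). The first base of the TGANTCA match lay 193 bases before the start in Sprr2d and 197 in Sprr2f, and that of the TATAAA box 29 bases before it in both. On either strand TGANTCA occurred in 2565 of 32851 RefSeq promoter windows of this length (7.81%) and TATAAA in 4473 (13.6%). In the Sprr2 family 7 of 10 windows held each motif. The 2 motifs share no bases in these windows, and a match describes the sequence only.

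Secreted and bactericidal proteins rose beside the Sprr2 genes. Lcn2, the iron-scavenging lipocalin 2, had relative levels of 3.05, 3.40 and 4.50 in P15 mutants and 0.32, 0.99 and 1.42 in P10 mutants. It rose 7.17-fold (floored, 2.72 ± 0.28, SE, adjusted p = 4.14e-07), and by 2.13 more than in controls (adjusted p = 2.8e-05). The ages did not overlap, and all P15 mutants lay above the P15 controls, whose highest value was 1.06.

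The genes of beta-defensins 14 and 4, peptides that kill bacteria, were detected in mutants and in 0 controls. Defb14 rose 4.16-fold (floored) and was detected on 5 of 6 P15 mutants, 1 of 6 P10 mutants and 0 of the 16 controls. Defb4 rose 4.07-fold (floored) and was detected on 6 of 6 P15 mutants, 4 of 6 P10 mutants and 0 of the 16 controls, with relative levels of 2.91, 3.59 and 4.77 in P15 mutants and 0.92, 1.55 and 1.97 in P10 mutants. The change was higher in mutants than in controls by 2.25 for Defb14 (adjusted p = 1.78e-05) and by 1.90 for Defb4 (adjusted p = 0.000664), the second of which missed the threshold under median scaling.

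S100a9, a subunit of calprotectin that is made by stressed keratinocytes and by granulocytes, rose 4.70-fold, with relative levels of 0.87, 2.14 and 3.67 in P15 mutants and -0.45, -0.07 and 0.47 in P10 mutants. It also rose in controls by 1.5 on the log2 scale, and the difference was 0.73 (adjusted p = 0.342). The granulocyte markers Csf3r, Cxcr2 and Mpo were not detected on any array. An undetected probe does not show that cells were absent, since Krt25 was detected on 0 arrays and Krt71, also of the inner root sheath, on 28. Of 12 genes on the granulocyte list 2 were measured, and 2 rose in controls. The 1 that rose in mutants was S100a9 itself, so this count says nothing of other granulocyte genes. Which cells gave the S100a9 signal was not tested. Saa3, a serum amyloid made in skin and fat, rose 3.01-fold (floored) and Chil1, a chitinase-like protein of inflamed tissue, rose 3.52-fold, a call lost with slides 1 and 3 alone. Clec2e, a C-type lectin, rose 3.87-fold (floored), with relative levels of 1.29, 2.86 and 3.55 in P15 mutants and 0.22, 0.33 and 0.49 in P10 mutants, and its call was lost with slides 2 and 3 alone. Cxcl1, a chemokine that attracts neutrophils and was chosen after its values were seen, was detected on 6 of 6 P15 mutants, 3 of 6 P10 mutants and 0 controls and rose 2.60-fold (floored), by 1.79 more than in controls (adjusted p = 2.8e-05).

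**Figure D3:**
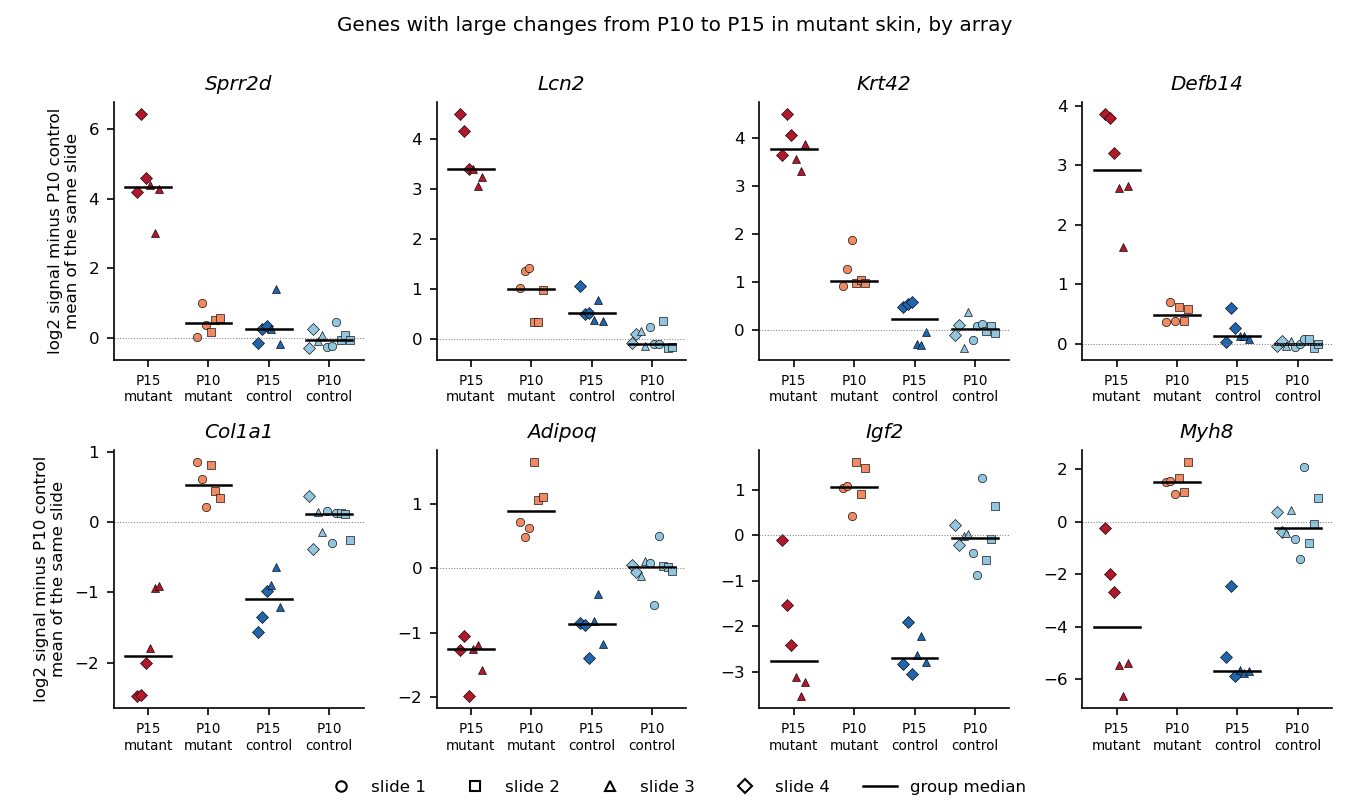
Relative log2 level of named genes (vertical axes, 0 is the mean of the P10 controls on the same slide) on each array, with P15 mutants, P10 mutants, P15 controls and P10 controls from left to right, a symbol for each slide and a bar at the group median. Krt42 lies between 3.31 and 4.50 in P15 mutants, between 0.91 and 1.88 in P10 mutants and between -0.31 and 0.58 in P15 controls.

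Keratin genes of stressed epithelium rose. Krt42, a type I keratin of the nail unit that is close to the stress keratins, had relative levels of 3.31, 3.76 and 4.50 in P15 mutants and 0.91, 1.01 and 1.88 in P10 mutants. It rose 6.27-fold (2.65 ± 0.25, SE, adjusted p = 1.7e-07), and changed by 0.16 in controls (adjusted p = 0.578). The difference, 2.49 ± 0.23, had an adjusted p of 3.65e-07. All 12 mutant values lay above the P15 controls, whose highest was 0.58.

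Krt16, a keratin of the companion layer and of injured epidermis, rose 3.18-fold in mutants, with relative levels of 0.86, 1.56 and 2.17 in P15 mutants and -0.50, -0.18 and 0.39 in P10 mutants. Krt6b, its usual partner, rose 2.25-fold. Both also rose in controls, and the adjusted p of the difference was 0.208 for Krt16 and 0.734 for Krt6b. With Krt42 they belonged to a list of 18 genes of the outer root sheath, companion layer and bulge, of which 5 rose and 1 fell in mutants and 5 rose in controls. Under median scaling 3 of them rose in mutants and 2 in controls.

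Some late differentiation genes of the interfollicular epidermis rose. Of 31 measured, 4 rose and 0 fell in mutants (median change 0.29, with 25 of the 31 changes above 0), and 9 rose and 1 fell in controls. The share called in mutants was 12.9%, near the 12.7% of all genes called in either direction, and 6.3% of all genes were called higher. At an unadjusted p below 0.05, 10 were higher and 0 lower in P15 mutants (32.3% of the list, against 28.1% of all genes in either direction). The count of 4 was 9 without P15 mutant 5 and 1 with the muscle score in the fit, and under median scaling 2 rose and 2 fell in controls. Cdsn, the corneodesmosin that holds cornified cells together, rose 1.65-fold without overlap. Lce3b, a late cornified envelope gene, rose 4.92-fold (floored, adjusted p = 0.0142), with relative levels of 0.07, 0.42 and 2.10 in P15 mutants and -3.27, -1.65 and -0.22 in P10 mutants. It changed by -1.16 in controls (adjusted p = 0.0934), and the difference was 3.64 ± 0.63 (SE, adjusted p = 0.00137). The rise of Lce3b was lost with slides 1 and 3 alone and with the muscle score in the fit.

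Of 16 genes for enzymes of the barrier lipids, 3 rose and 0 fell. Aldh3a2, the fatty aldehyde dehydrogenase mutated in Sjögren-Larsson syndrome, rose 1.76-fold and Sult2b1, which sulfates cholesterol, rose 1.70-fold. Both rose in controls as well, where 6 of the 16 rose. Under median scaling 0 of the 16 rose in mutants or in controls, and the calls of Aldh3a2 and Sult2b1 were lost. Prss27, a serine protease of squamous epithelia, rose 3.49-fold, by 1.35 more than in controls (adjusted p = 0.0027). Klk6, a kallikrein protease, rose 2.36-fold, with relative levels of 2.17, 2.79 and 3.16 in P15 mutants and 0.74, 1.41 and 2.20 in P10 mutants. The highest P10 mutant lay just above the lowest P15 mutant. Genes of sterol and fatty acid synthesis (19) held 0 members that rose or fell by limma's test. At an unadjusted p below 0.05, 1 was higher and 1 lower (10.5% of the list, against 28.1% of all genes). Without P15 mutant 5, 1 rose and 1 fell.

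Proliferation genes did not pass the threshold in mutants with all arrays in the fit, and many fell in controls. Of 23 measured, 0 rose and 0 fell in mutants by limma's test, with a median change of 0.10, and 11 fell in controls, with a median of -0.49. At an unadjusted p below 0.05, 5 were higher and 2 lower in P15 mutants (30.4% of the list, against 28.1% of all genes). Averaged over the list, relative levels were -0.03, 0.08 and 0.27 in P15 mutants and -0.23, 0.10 and 0.25 in P10 mutants, so the ages overlapped over most of their range. P15 controls lay at -0.62, -0.55 and -0.28, below all 12 mutants. The change was higher in mutants than in controls for 6 of the 23 genes and lower for 0.

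The genes behind that difference include parts of DNA replication and of mitosis, named after their values were seen. Cdc20, an activator of the anaphase-promoting complex, had relative levels of -0.10, 0.08 and 0.53 in P15 mutants, -0.44, -0.31 and 0.05 in P10 mutants and -0.90, -0.57 and -0.54 in P15 controls. Its difference was 1.09 ± 0.17 (SE, adjusted p = 0.00046). Birc5, the mitotic protein survivin, differed by 0.86 (adjusted p = 0.0028), and the replication helicase genes Mcm5 and Mcm2 differed by 0.89 (adjusted p = 0.00638) and 0.70 (adjusted p = 0.0167). In each of the 4 genes the change in mutants alone was between 0.10 and 0.43 and did not pass the threshold.

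Histone genes, transcribed as DNA is replicated, also fell in controls. Of 16 measured, 1 fell in mutants (median change -0.21), 9 fell in controls (median -0.71), and the change was higher in mutants for 5. Under median scaling, 0 of the 23 proliferation genes rose or fell in mutants, 17 fell in controls and the change differed for 5. Without P15 mutant 5, 2 of the 23 rose and 2 fell in mutants, and the change was higher in mutants for 9, while 2 of the 16 histone genes fell. With the muscle score in the fit 3 histone genes fell.

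**Figure D4:**
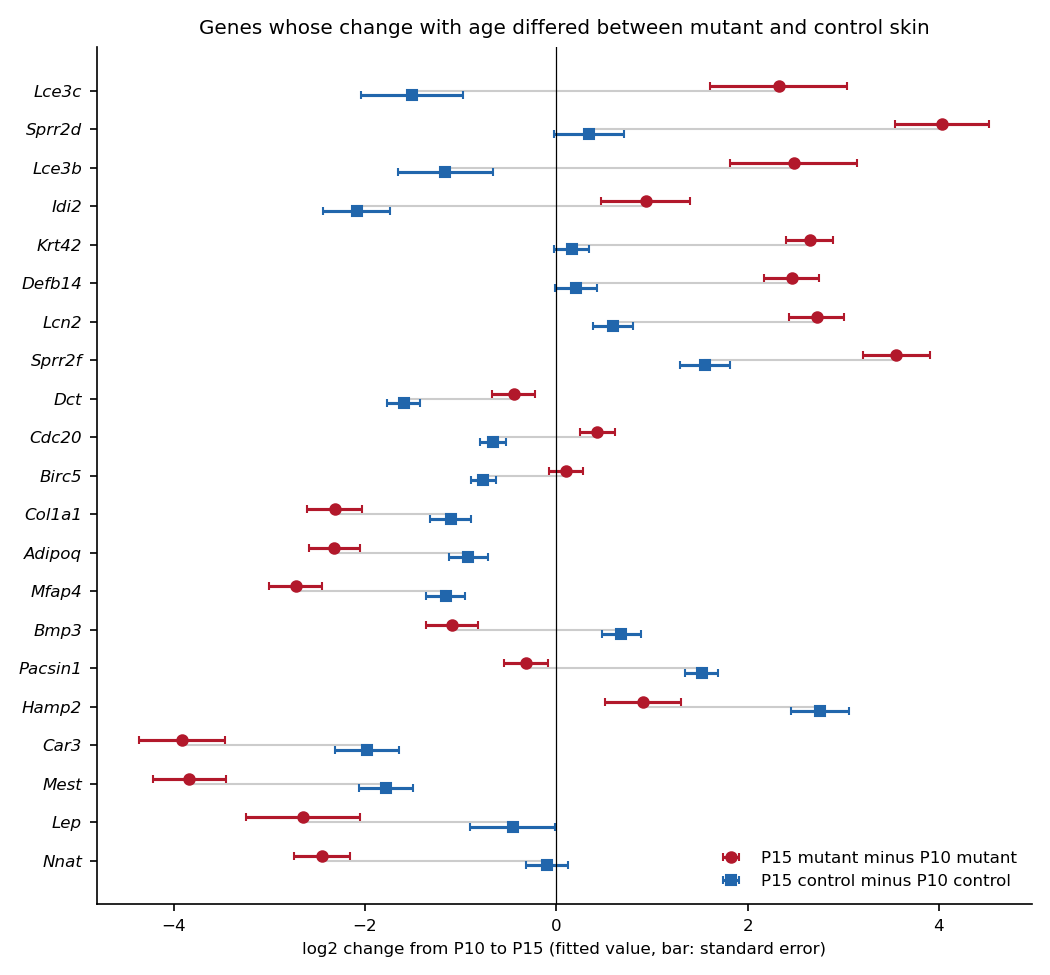
Fitted log2 change from P10 to P15 (horizontal axis, bars are standard errors) in mutant skin (red circles) and in control skin (blue squares) for 21 genes whose difference between the changes passed the threshold (rows, ordered by that difference). Krt42 stands at 2.65 in mutants and 0.16 in controls, and Nnat at -2.45 in mutants and -0.09 in controls.

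Pigment genes, most active in growing hair, fell in controls and, for fewer genes, in mutants. Of 14 melanocyte genes, 1 fell in mutants (median change -0.51, with 13 of the 14 changes below 0) and 11 fell in controls (median -1.31), and the change was higher in mutants for 2. At an unadjusted p below 0.05, 5 were lower in P15 mutants (35.7% of the list, against 28.1% of all genes in either direction). The mutant count was 3 without P15 mutant 5, under median scaling and with the muscle score in the fit. The change was higher in mutants for 4 without P15 mutant 5. The list as a whole had mean relative levels of -0.72, -0.46 and -0.21 in P15 mutants, -0.30, 0.15 and 0.45 in P10 mutants, which overlapped, and -1.60, -1.05 and -0.88 in P15 controls, all below the P15 mutants. Mc1r, the melanocortin receptor that selects dark pigment, fell in mutants to levels detected on 1 of 6 arrays, against 6 of 6 P10 mutants, and was 2.21-fold lower (floored). Dct and Mlana, a pigment enzyme and a melanosome protein chosen after their values were seen, had differences of 1.15 (adjusted p = 0.0025) and 1.08 (adjusted p = 0.0208).

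Hair shaft genes went in both directions. Keratin-associated proteins bind keratin filaments together in the hair shaft. Of 27 measured genes of this kind, 6 rose and 5 fell in mutants, and 14 rose and 3 fell in controls. The change was lower in mutants for 7 and higher for 0. Without P15 mutant 5, 9 rose and 7 fell in mutants, and under median scaling 3 rose and 4 fell and the change was lower for 4. Krtap31-2 had relative levels of -3.72, -3.11 and -2.46 in P15 mutants and -1.19, -0.93 and -0.81 in P10 mutants and was 4.49-fold lower, by 1.18 more than the fall in controls (difference -1.18, adjusted p = 0.00687). Krtap1-4 rose 2.70-fold in mutants, with relative levels of 0.10, 0.33 and 1.24 in P15 mutants and -1.29, -0.97 and -0.22 in P10 mutants, and rose by 1.42 on the log2 scale in controls. Members of this family are close copies, so their probes may share signal.

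Of 10 hair shaft keratins, 3 fell in mutants (30%, against 6.36% of all genes called lower) and 0 rose, whereas 3 rose and 1 fell in controls. Krt82, a cuticle keratin, was 1.89-fold lower, with relative levels of -0.68, -0.29 and 0.04 in P15 mutants and 0.22, 0.52 and 1.00 in P10 mutants. Krt87 was 1.99-fold lower and Krt35, a keratin of the early cortex and cuticle, was 1.74-fold lower, with overlap for Krt35 alone. The calls of all 3 were lost with slides 2 and 3 alone and with slides 2 and 4 alone. The changes of Krt82 and Krt87 differed from those in controls by -0.85 (adjusted p = 0.00918) and -0.94 (adjusted p = 0.0106), and both differences missed the threshold under median scaling. The mean relative level of the 10 keratins was -0.32, -0.23 and -0.08 in P15 mutants, -0.13, 0.04 and 0.05 in P10 mutants and 0.12, 0.24 and 0.30 in P15 controls.

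The inner root sheath, the layer that moulds the growing hair, held 2 genes of 10 that rose and 0 that fell. Krt26 rose 2.16-fold, with relative levels of 0.32, 0.41 and 0.74 in P15 mutants and -1.19, -0.66 and -0.24 in P10 mutants, and Tchhl1, related to the sheath protein trichohyalin, rose 2.17-fold. Krt26 rose by 1.02 in controls on the log2 scale, with a difference of 0.09 (adjusted p = 0.835). Among 14 regulators of the hair matrix 1 rose and 2 fell (2 and 3 without P15 mutant 5). The riser was Ovol1, a transcription factor of epithelial differentiation, at 1.86-fold, and it rose in controls too. Of 12 genes of the dermal papilla 3 fell (2 without P15 mutant 5 and 1 with the muscle score in the fit), a share of 25%, against 12.7% of all genes called. Trps1, a transcriptional repressor needed for hair growth, led them at 2.92-fold lower and was also 1 of the 2 matrix regulators that fell. The calls of the other 2, Crabp1 and Fgf7, were lost in 17 and 21 of the 28 fits with 1 array left out.

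**Figure D5:**
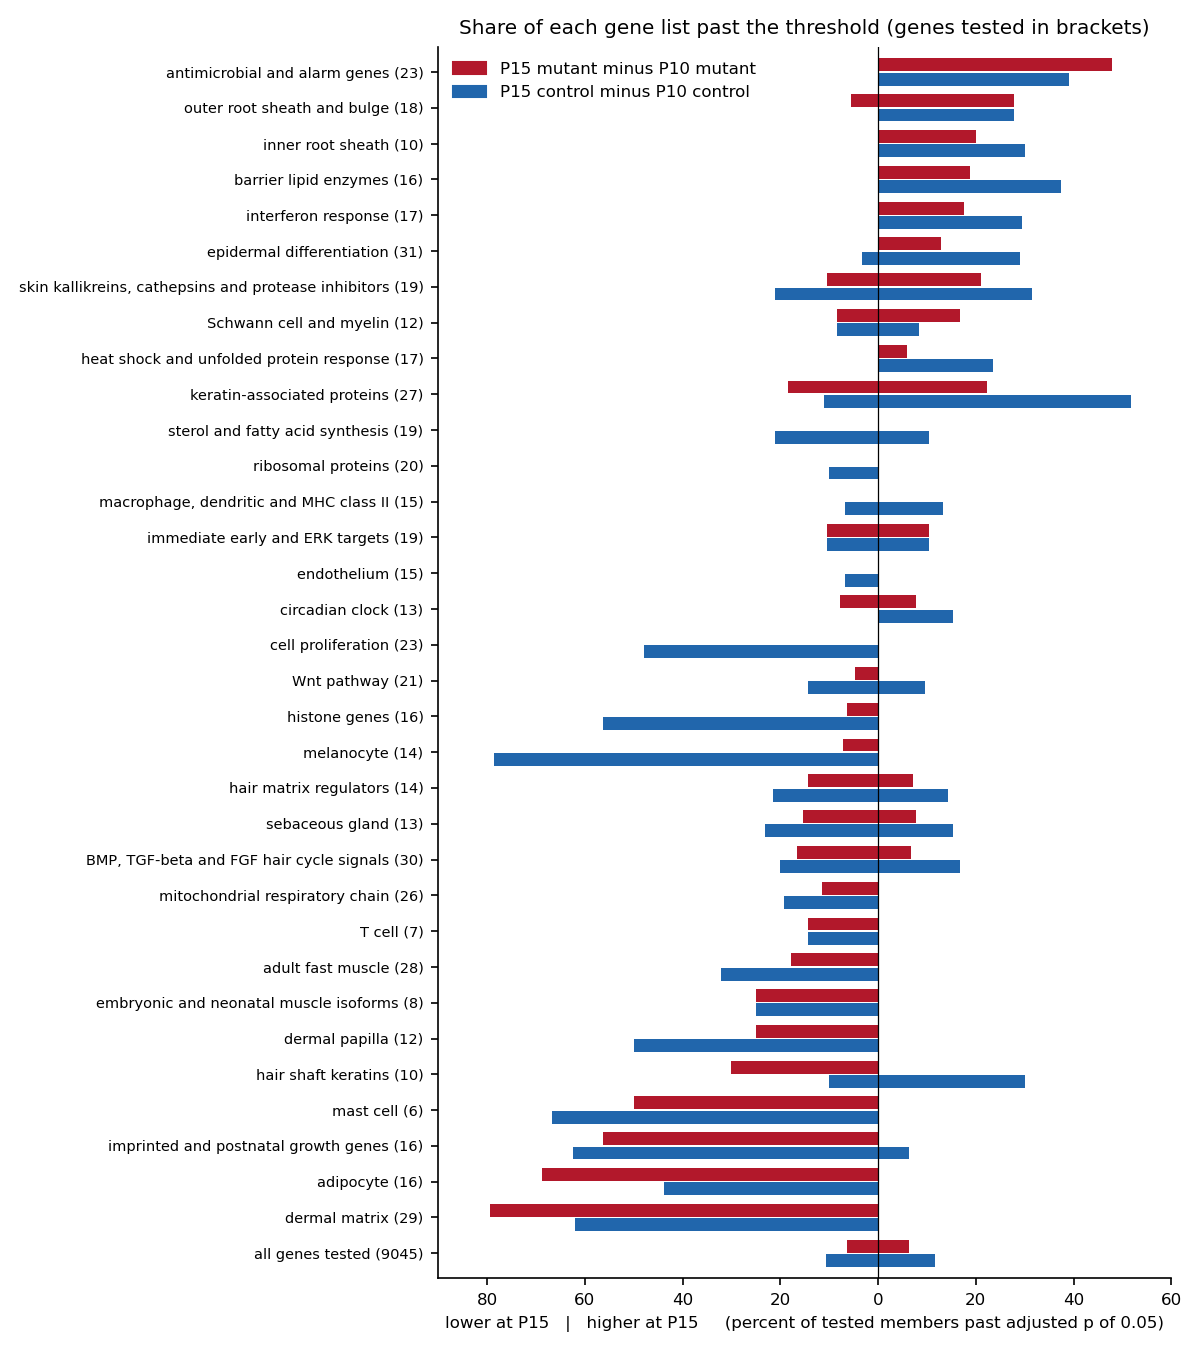
Share of each gene list (rows, number of genes tested in brackets) that rose (right) or fell (left) at an adjusted p below 0.05, for P15 mutant minus P10 mutant (red) and P15 control minus P10 control (blue). Dermal matrix reaches 79.3% lower in mutants, against 6.36% of all genes, and cell proliferation 0% in mutants.

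Among genes of growth factor signalling some rose and some fell. Of 19 immediate early genes and ERK targets, 2 rose and 2 fell in mutants, a share of 21.1%, against 12.7% of all genes called. Egr2 and Junb, transcription factors induced by ERK signalling, rose 1.73-fold and 1.61-fold. Etv4 and Ccnd1 fell, with log2 changes of -0.68 and -0.54 (limma adjusted p = 0.0203 and 0.037). The relative level of Egr2 had a lowest value of -0.47 and a median of -0.14 in P15 mutants, all below 0, and values of -1.33, -0.95 and -0.81 in P10 mutants, without overlap. In P15 controls its median was 0.33 and its highest value 0.57, and the difference between the changes was 0.50 (adjusted p = 0.0752). Both rises and the fall of Ccnd1 were lost under median scaling.

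Of 30 genes of BMP, TGF-beta, FGF and insulin-like growth factor signals, 2 rose and 5 fell, and 8 fell under median scaling. The share called was 23.3%, against 12.7% of all genes. Hbegf, a ligand of the epidermal growth factor receptor, rose 1.96-fold and Fgf5, which ends the hair growth phase, rose 2.18-fold. Fgf5 had relative levels of -0.96, -0.50 and 0.11 in P15 mutants, -1.85, -1.63 and -1.03 in P10 mutants and 0.32, 0.69 and 1.12 in P15 controls. The P15 mutants lay below all P15 controls, and Fgf5 rose in controls by 0.72 on the log2 scale, with a difference of 0.40 (adjusted p = 0.351). Igfbp5 and Igfbp4, which bind insulin-like growth factors, were 2.43-fold and 2.09-fold lower. Of 21 Wnt pathway genes 0 rose and 1 fell (4.76%), and without P15 mutant 5 this was 1 and 0.

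The difference between the mutant and the control change also passed the threshold for genes of other kinds. Idi2, a copy of the isoprenoid enzyme gene Idi1, changed by 0.93 in mutants (adjusted p = 0.189) and fell by 2.09 in controls, a difference of 3.02 (adjusted p = 0.000263). Hamp2, a hepcidin gene, changed by 0.91 in mutants (adjusted p = 0.138) and rose by 2.76 in controls, a difference of -1.85 (adjusted p = 0.00535). Pacsin1, a protein of endocytosis, changed by -0.32 in mutants (adjusted p = 0.38) and rose by 1.52 in controls, with relative levels of -0.30, -0.14 and 0.17 in P15 mutants, -0.05, 0.21 and 0.68 in P10 mutants and 1.22, 1.57 and 1.82 in P15 controls. Bmp3, a member of the bone morphogenetic protein family that opposes the others, was 1.98-fold lower in mutants (floored, adjusted p = 0.00948) and rose by 0.68 in controls, a difference of -1.77 (adjusted p = 0.000266). The fall of Bmp3 in mutants was lost with slides 1 and 3 alone, with slides 1 and 4 alone and with the muscle score in the fit.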

How the data were processed

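Total RNA of mouse dorsal skin was measured on 28 Illumina BeadChip arrays. Per the file headers, the deposited table holds 1 non-normalised intensity and 1 detection p-value for each probe and array, and the authors' processed intensity values were used as an alternative; the submitters' processing notes name GenomeStudio, with version and settings not given in the sources used. No columns were left unused.

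Intensities were background-corrected and quantile-normalised with neqc (offset 16) in limma 3.58.1 (R 4.3.3). Of 25697 probes, those with a detection p-value below 0.01 on at least 6 arrays were kept, and the probe with the highest mean stood for its gene, which gave 9045 genes. Of 12834 probes kept, 732 had no symbol and were set aside. Groups and slides were fitted over all 28 arrays with lmFit and eBayes, with Benjamini-Hochberg adjustment over all genes. Figures were drawn with matplotlib 3.10.9 in Python 3.11.15.

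Named genes are Gab1, the 12 largest rises and falls without overlap after slide adjustment, up to 4 called members of each list, and the 8 largest differences from the control change in each direction. A gene with another probe called in the opposite direction was left out. Members and lists were chosen with earlier results of these data known, and genes named outside the rule are marked where they appear. The replicate numbers were not treated as pairs, since the labels name no pairing. Deviations of same-numbered mutants correlated between -0.139 and 0.0942, which cannot exclude a pairing. On simulated data with 200 of 9045 genes changed, 61% of 2-fold and 20% of 1.5-fold changes were recovered in the P15 mutant minus P10 mutant comparison, and 2 unchanged genes were called. The simulated noise was independent for each gene and array. Variation that genes share across arrays, such as muscle content, was left out, so these rates may not hold for the real arrays. The number of arrays limits the precision.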

Additional observations from a re-analysis of the deposited data

Results flagged for a closer look

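Of 170 groups of 6 mutant values examined, 9 held an array that stood apart from the other 5 by Dixon's test, and chance alone marks about 1 in 20 groups. Among P15 mutants, array 5, the one with the fewest detected probes, was lowest for Zbtb7a (relative level -4.77), Ovol1 (0.11) and Mcm5 (-0.82), and array 1 was lowest for Lep (-4.79). Among P10 mutants, array 3 was highest for Krt42 (1.88) and Krtap1-4 (-0.22), array 4 was highest for Nnat (2.01) and lowest for Mlana (-0.61), and array 6 was lowest for Egr2 (-1.33).

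The change from P10 to P15 differed between mutant and control skin, by the limma test of the difference, for 38 of the genes named. Values below are the mutant change minus the control change on the log2 scale. Among genes of stressed epidermis and defence it was 3.69 for Sprr2d, 2.00 for Sprr2f, 3.64 for Lce3b, 2.49 for Krt42, 2.13 for Lcn2, 2.25 for Defb14, 1.90 for Defb4, 1.89 for Chil1, 1.79 for Cxcl1 and 1.35 for Prss27. It was 1.09 for Cdc20, 0.89 for Mcm5, 0.86 for Birc5 and 0.70 for Mcm2 among proliferation genes. For the pigment genes Dct and Mlana it was 1.15 and 1.08, and for Idi2 it was 3.02.

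Values below 0, a more negative or less positive change in mutants, were found in fat genes: -1.94 for Car3, -2.20 for Lep, -1.40 for Adipoq, -1.12 for Agpat2, -1.11 for Plin4 and -1.08 for Pparg. In matrix genes the difference was -1.57 for Mfap4, -1.07 for Lum, -1.21 for Col1a1 and -0.77 for Col6a2, and in growth genes -2.06 for Mest and -2.36 for Nnat. Hair shaft genes gave -1.18 for Krtap31-2, -0.85 for Krt82 and -0.94 for Krt87. The others were -1.86 for Sncg, -1.54 for Cpz, -1.54 for Myl4, -1.85 for Hamp2, -1.83 for Pacsin1 and -1.77 for Bmp3. The differences for Col1a1, Col6a2, Lum, Plin4, Pparg, Defb4, Krt82 and Krt87 missed the threshold under median scaling, that for Hamp2 missed it with the authors' processed values, and those for Lum and Lep missed it without P10 mutant 4.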

How the results depend on the processing

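The mutant change called 570 genes higher and 575 lower. Without a slide term it called 2238 and 1815, with slides 1 and 4 alone 1116 and 903, with slides 2 and 3 alone 171 and 363, with slides 2 and 4 alone 256 and 342, and with slide as a random block 1273 and 1026. Array weights gave 1317 and 1024, a muscle covariate 297 and 367, and a test against a fold of 1.2 gave 115 and 233. Under median scaling 129 genes rose (15.2% of calls, against 49.8%), the difference from controls called 115 higher and 95 lower, and the control change called 206 and 2048. Probes detected on all arrays gave 380 falls. Leaving out each array in turn gave 369 (without P10 control 6) to 990 (without P15 mutant 5) higher, with 377 without P10 mutant 1, and 438 to 753 lower. The difference from controls then called 112 (without P10 control 6 or P10 mutant 1) to 336 (without P15 mutant 5) higher and 123 to 280 (without P15 mutant 5) lower. The cause of these shifts was not tested.

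A replicate block beside the slide term called 0 higher and 1 lower, with standard errors 2.40 times as large, 0 and 0 for the difference, and 598 and 570 for the control change. By their labels the arrays share only a number, and the numbers above 6 are single arrays. On the 12 mutants alone without a slide term (added after seeing the data), the replicate block called 2063 and 1727. With the block and the slide term, the log2 change turned sign for Krtap4-13 (-1.39), Rptn (-0.45), Isg15 (-0.087), Junb (-0.21), Crabp1 (0.18) and Sp5 (0.0021). Isg15 was -0.38 without a slide term, with or without the block.

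Of 95 called genes that the naming rule gives, 33 kept their call under every alternative other than those with the block or without a slide term, 24 lost it when 1 array was left out, and 0 changed sign. Signal near background limits the genes given as floored, and 6 arrays at each age on 4 slides limit the precision.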

Other observations

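Interferon response genes, which are induced in virus-sensing and inflamed tissue, were among the smaller groups: of 17 measured, 3 rose and 0 fell in mutants, and 0 rose under median scaling. Psmb9, a subunit of the immunoproteasome, had relative levels of 0.33, 1.27 and 1.57 in P15 mutants (lowest, median and highest) and -0.04, 0.16 and 0.49 in P10 mutants. These overlapped, the rise was 1.96-fold (limma adjusted p = 0.00473), and the gene rose in controls by 1.13 on the log2 scale. The rise of Psmb9 was lost under median scaling, with slides 1 and 4 alone and with slides 2 and 4 alone.

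Genes of the mitochondrial respiratory chain held 3 of 26 members that fell and 0 that rose, with 24 of the 26 changes below 0. The share called was 11.5%, against 12.7% of all genes called in either direction and 6.36% called lower. Without P15 mutant 5, 6 fell. The members that fell were Ndufa10, Cyc1 and Uqcrc2. The calls of Cyc1 and Uqcrc2 were lost in 13 and 15 of the fits with 1 array left out. Ndufa10, a subunit of complex I, was 1.94-fold lower in P15 mutants, without overlap, with relative levels of -1.59, -0.68 and -0.40 in P15 mutants and -0.40, 0.18 and 0.55 in P10 mutants. Thy1, a surface protein of T cells, fibroblasts and neurons, was 1.68-fold lower without overlap and was the 1 of 7 T cell genes that fell. Dbp, a transcription factor driven by the circadian clock, was 1.61-fold lower and missed the threshold in each of the 4 combinations of 1 slide of each age. Cstb, a cystatin that inhibits cathepsins, rose 1.68-fold without overlap, and its call was lost under median scaling, with slides 1 and 3 alone and with slides 2 and 3 alone. The call of Thy1 was lost with the same 2 pairs of slides, and that of Ndufa10 with slides 2 and 3 alone and with slides 2 and 4 alone. Of 12 Schwann cell and myelin genes 2 rose and 1 fell, and Egr2, also counted among the ERK targets, was 1 of the 2 that rose.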
